A study of Mus musculus with 9 samples.

Results

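The genes described here are the nuclear genes that encode the proteins of the cytoplasmic ribosome, read in microglia sorted from the visual cortex of adolescent mice that had received ethanol or saline as newborns. They were chosen by symbol, as Rpl or Rps followed by a number or as Rplp0, Rplp1, Rplp2 or Rpsa, with a mean CPM of at least 1 over the 9 libraries (CPM being counts scaled to a common library size with TMM factors, trimmed means of log ratios). Of 88 symbols of this form among the 45664 in the table, 80 met the rule, 47 of the large subunit and 33 of the small. Because the rule used the level, levels are given as a description with no test.

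The ethanol group held 4 male C57BL/6 mice that were injected under the skin of the back with ethanol on postnatal days 4 to 9, at 1.8 g per kg for each of 2 daily doses given 2 h apart (3.6 g per kg per day, 20% v/v in saline). They were killed on days 35, 35, 30 and 30 (ethanol 1 to 4). The saline group held 5 male C57BL/6 mice that received the same volume of saline on the same days and were killed on days 36, 30, 35, 29 and 30 (saline 1 to 5). The mice came from 3 litters, with the litter of each not stated in the sources used here, and no genetic change is named. Each library came from the live CD11b-positive, CD45-low cells of 1 mouse, so spread between mice includes that of sorting and library preparation.

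Ribosomal proteins bind ribosomal RNA in the nucleolus, where most of the subunits are assembled, and a ribosome takes 1 copy of nearly all of them. Their mRNAs are abundant in growing cells. Many begin with a C followed by a run of pyrimidines, the 5′ terminal oligopyrimidine (TOP) tract, through which the kinase mTOR controls their translation with little change in mRNA level. In microglia, protein synthesis rises when the cells grow or respond to injury. These libraries measured mRNA and not its translation.

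The annotated starts of the genes were searched for such a tract, because it is the sequence these mRNAs are best known for. A RefSeq promoter window (GRCm38.p6) was found for 59 of the 80 genes. A C within 5 bases of the annotated start, followed by at least 4 further C or T on the gene's strand, was present in 29 of 59 (49.2%), against 19.7% of all 27025 genes with a window. With at least 6 further C or T the shares were 39.0% of the ribosomal protein genes and 7.06% of all genes, and with the C placed exactly on the start base they were 22.0% and 3.01%. Genes for mitochondrial ribosomal proteins, which are translated in the cytoplasm and then imported, had the first form in 20.3% of the 69 genes with a window. The 7 letters CCGGAAG are a form of the motif bound by ETS factors, and the search for them was added after the data were seen. Among genes with a window, they lay on either strand of the 300-base window in 42.4% of the ribosomal protein genes. The shares were 37.7% of the mitochondrial ribosomal protein genes and 9.93% of all genes. A match is a description of the letters and not a site shown to be used. Below are 30 bases around the start, 15 before it, for a set of genes named in the results, with the tract in capitals where there is one. The sequences are printed 5′ to 3′ on the gene's strand, and the starts are those annotated by RefSeq, not starts measured in microglia.
Rps27, chr3:90213634-90213663, minus strand: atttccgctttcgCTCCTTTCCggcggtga
Rps9, chr7:3704026-3704055, plus strand: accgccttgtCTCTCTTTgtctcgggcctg
Rps6, chr4:86857353-86857382, minus strand: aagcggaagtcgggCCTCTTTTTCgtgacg
Rpl28, chr7:4792950-4792979, plus strand: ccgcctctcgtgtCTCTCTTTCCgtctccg
Rplp2, chr7:141447636-141447665, plus strand: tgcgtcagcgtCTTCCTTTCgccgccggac
Rpl12, chr2:32961697-32961726, plus strand: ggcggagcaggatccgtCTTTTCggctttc
Rpl38, chr11:114668565-114668594, plus strand: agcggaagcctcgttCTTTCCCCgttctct
Rpl22l1, chr3:28805493-28805522, plus strand: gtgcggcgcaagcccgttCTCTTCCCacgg
Rpl4, chr9:64173372-64173401, plus strand: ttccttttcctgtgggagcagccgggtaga
Rplp0, chr5:115559452-115559481, plus strand: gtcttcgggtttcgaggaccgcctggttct
Rpl7l1, chr17:46782642-46782671, minus strand: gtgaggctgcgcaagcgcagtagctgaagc

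Rps27, Rps9 and Rps6 carried tracts whose first C lies within 5 bases before the annotated start. The first C of the tract of Rpl38 lies on the start, directly after further T bases. The window of Rpl4 holds a long run of pyrimidines, but farther upstream than the search reached. The window of Rpl7l1 has no such run at all. A tract at the annotated start and a high level per length did not go together in every gene. Rpl4, among the 5 highest genes in CPM per kb, had none within the search, and Rps15a, the lowest, had one. The low place of Rps15a depends on its long reference transcript (5179 nucleotides), and in CPM it had a mean of 18.9.

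Library totals ran from 12816198 to 28859244 counts, and the lowest count of any of these genes in any library was 29 (Rpl23a). The cells carried the markers of microglia. All 15 defining markers were tested, and their summed level was 84449 ± 6620 CPM in ethanol mice and 80237 ± 4872 CPM in saline mice (SD, n = 4 and 5). Csf1r, the growth factor receptor on which microglia depend, reached 19133 CPM in ethanol mice and 19385 CPM in saline mice. Traces of other brain cells were present. The 12 neuronal markers, 9 of them tested, summed to between 183 and 500 CPM in ethanol libraries and between 7.95 and 437 CPM in saline libraries. The 13 astrocyte markers, all tested, summed to between 350 and 517 CPM in ethanol libraries and between 272 and 518 CPM in saline libraries. The lowest sum hid a wide difference. In saline 1, which had it, 5 of the 13 had no count and 0 lay above their own 9-library mean. Their median deviation from that mean there was -2.43 on the log2 scale. The 10 oligodendrocyte markers, 6 of them tested, summed to between 232 and 266 CPM in ethanol libraries and between 199 and 262 CPM in saline libraries. In saline 1 the 6 tested ones had a median deviation of -0.92, with 2 above their own mean. The 9 endothelial and mural markers, 3 of them tested, summed to between 49.9 and 69.97 CPM in ethanol libraries and between 61.8 and 72.9 CPM in saline libraries. Border macrophages, which line the vessels and meninges, had 6 markers, 4 of them tested, with sums between 39.1 and 91.2 CPM in ethanol libraries and between 48.3 and 81.6 CPM in saline libraries. The ranges of the 2 groups overlapped for each of these lists. The 7 monocyte and neutrophil markers, 2 of them tested, summed to between 4.84 and 15.98 CPM in ethanol libraries and between 4.69 and 7.80 CPM in saline libraries. Red cell markers, 5 in number and none tested, stayed between 0.0573 and 0.159 CPM in ethanol libraries and between 0.142 and 0.834 CPM in saline libraries. Of these lists, Cldn11 of oligodendrocytes, Rgs5 of mural cells, and S100a8 and S100a9 of neutrophils had no count in any library.

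Together the 80 genes took a small part of the counts. Their share of all counts was 0.337, 0.381, 0.366 and 0.368% in ethanol 1 to 4, against 0.352, 0.356, 0.335, 0.405 and 0.327% in saline 1 to 5. The saline range enclosed the ethanol range. Summed levels were 3623 ± 153 CPM in ethanol mice and 3553 ± 314 CPM in saline mice. The summed level of large subunit genes was 1.60 ± 0.038 times that of small subunit genes in ethanol mice and 1.60 ± 0.039 times in saline mice, and the ratio lay between 1.54 and 1.66 in all 9 libraries.

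Per length, the genes were spread widely. Divided by the length of 1 reference transcript, the median level was 44.4 CPM per kb (quartiles 26.1 and 68.5), against 8.25 CPM per kb for all tested genes and 13.5 CPM per kb for the genes of the mitochondrial ribosome. Of the 80 genes, 77 lay above the median of tested genes in CPM per kb and 32 in the top 10%. In CPM the medians lay closer, at 34.2 for these genes and 21.9 for all tested genes. The gap per kb thus depends in part on transcript length, with medians of 834 nucleotides here and 2854 for tested genes. The 40 genes with the shorter transcripts had medians of 33.96 CPM and 53.5 CPM per kb. The 40 with the longer ones had 35.98 CPM and 32.9 CPM per kb. Per kb, the highest of the 80 were Rps29 at 176 ± 29.1, Rps27 at 157 ± 15.7 and Rps9 at 150 ± 12.95 CPM per kb (SD over 9 libraries). Neighbours in this order differed by less than 1 SD. Rpl4, at 125 ± 14.3 CPM per kb, was also among the 5 highest. At the other end stood Rps15a at 3.66 ± 0.458, Rpl23a at 5.72 ± 1.01, Rps20 at 6.75 ± 0.694 and Rpl22 at 8.54 ± 0.583 CPM per kb. The reference transcripts of Rps15a and Rps20 are 5179 and 3706 nucleotides long, against a median of 834 for the whole set, so their low values per kb depend on the transcript chosen. With the exon union of each gene as its length, the range from highest to lowest was 50.2-fold in place of 48.2-fold. The order moved with this choice. Rps27 then stood at 117 and Rps9 at 64.6 CPM per kb, while Rps29 and Rpl4 kept their values.

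**Figure D1:**
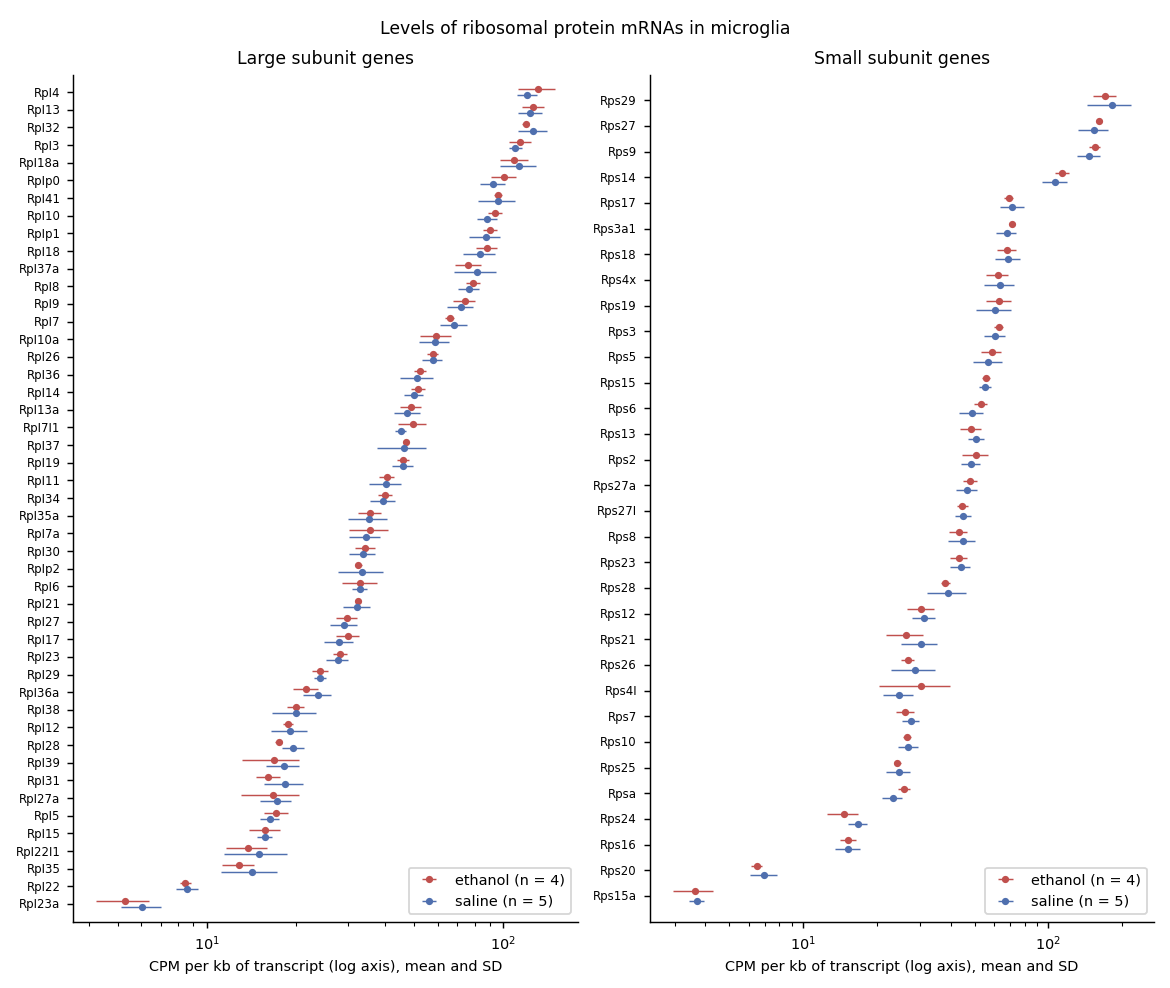
Mean level of 79 of the 80 ribosomal protein mRNAs in CPM per kb of transcript (log axis) with SD, large subunit genes on the left and small subunit genes on the right, for 4 ethanol mice and 5 saline mice. The ethanol and saline points of a gene lie close together over a range of 48.2-fold between Rps29 and Rps15a.

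Several rows near the threshold of 1 CPM were low. Just inside stood Rpl23a at 3.20 CPM and Rpl22l1 at 7.99 CPM. Just outside stood Rpl39l, a paralogue of Rpl39, at 0.917 CPM, the processed pseudogene Rps3a2 at 0.631 CPM and Rpl24 at 0.434 CPM. Rpl24 encodes a core large subunit protein, yet its row held 77 counts in all, between 5 and 18 a library. Rpl3l, the form of Rpl3 found in skeletal and heart muscle, had 1 count in 9 libraries, and Rpl10l, the copy of Rpl10 used in the testis, had none. Fau, which encodes a small subunit protein fused to a ubiquitin-like one and lies outside the symbol rule, had 35.2 ± 2.33 CPM in ethanol mice and 35.9 ± 4.48 CPM in saline mice. Genes of this family have many processed copies in the genome, and how reads that map to several places were handled is not stated in the sources used here. The table listed 258 rows of ribosomal protein pseudogenes (symbols with -ps), which summed to 15.7 CPM on average, with Rps13-ps4 highest at 1.86 CPM. How far reads lost to such copies lowered the rows of Rpl23a or Rpl24, or the share of counts of the whole set, was not tested.

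The stalk proteins sit on the large subunit and recruit the translation factors. Rplp0, the base of the stalk, had 125, 149, 147 and 124 CPM in ethanol 1 to 4, against 136, 123, 112, 139 and 117 CPM in saline 1 to 5. Rplp1 had 46.0, 42.6, 47.8 and 43.5 CPM in ethanol mice, against 44.2, 42.2, 41.8, 51.7 and 37.4 CPM in saline mice. Rplp2, the partner of Rplp1, had 32.1, 30.2, 31.3 and 31.4 CPM in ethanol mice, against 31.4, 29.9, 31.5, 41.7 and 26.7 CPM in saline mice. The groups overlapped for all 3 genes, and saline 4 was high and saline 5 low for Rplp1 and Rplp2. The 2 acidic proteins join the stalk as dimers in equal numbers. Per length Rplp1 (88.4 ± 8.13 CPM per kb) stood well above Rplp2 (33.0 ± 4.19 CPM per kb). Their reference transcripts are 499 and 964 nucleotides long, so this gap depends on the transcripts chosen. In CPM the means over the libraries were 44.1 and 31.8.

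Among genes with roles beyond the ribosome, Rps6 encodes the target of the S6 kinases, whose phosphorylation is read as a sign of mTOR activity. It had 47.7, 50.04, 45.6 and 43.3 CPM in ethanol mice, against 47.7, 41.9, 36.3, 47.1 and 41.1 CPM in saline mice, and the groups overlapped. Rpl5 and Rpl11, whose products bind 5S ribosomal RNA and restrain the p53 ligase Mdm2 when ribosome assembly fails, were read next. Rpl5 had 33.9, 39.0, 35.7 and 31.3 CPM in ethanol mice, against 30.9, 31.7, 34.4, 37.0 and 33.0 CPM in saline mice. Rpl11 had 32.7, 33.2, 32.0 and 36.5 CPM in ethanol mice, against 39.4, 31.3, 30.6, 36.1 and 30.0 CPM in saline mice. The groups overlapped for each of them. Rps19, mutated in Diamond-Blackfan anaemia, had 35.3, 46.4, 39.2 and 38.5 CPM in ethanol mice, against 35.6, 42.2, 35.5, 47.1 and 31.5 CPM in saline mice. Rps3, which also acts in DNA repair, had 116, 118, 128 and 117 CPM in ethanol mice, against 117, 106, 114, 133 and 107 CPM in saline mice. Rpl13a, part of a complex that silences inflammatory mRNAs in myeloid cells treated with interferon, had 46.9, 56.0, 53.1 and 48.8 CPM in ethanol mice, against 53.8, 45.6, 47.7, 56.2 and 45.3 CPM in saline mice. The ranges overlapped for these 3 genes, and saline 4 was the highest library for each. Rps27a, which encodes ubiquitin fused to a small subunit protein, had 35.5, 36.4, 40.5 and 39.4 CPM in ethanol mice, against 37.6, 35.1, 33.5, 42.6 and 35.3 CPM in saline mice, and the groups overlapped.

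In 4 pairs of related genes both members passed the rule. Rpl22l1, which in mice can stand in for Rpl22, had 6.82, 7.21, 6.99 and 9.43 CPM in ethanol mice, against 10.6, 10.03, 7.11, 7.74 and 5.97 CPM in saline mice. Rpl22 itself had 18.2, 17.0, 17.8 and 16.5 CPM in ethanol mice, against 17.9, 19.7, 16.7, 18.2 and 15.6 CPM in saline mice. Because the Rpl22 transcript is longer, Rpl22l1 was the higher of the pair per length, by 1.64 ± 0.332-fold in ethanol mice and 1.73 ± 0.313-fold in saline mice, and the ratio ran from 1.40 to 2.20 over the libraries. Rpl22l1 was among the most variable of the 80 genes, with an SD of 0.27 on the log2 scale. Rps27l, induced by p53 in other cells, stood below Rps27, at 0.277 ± 0.0165 times its level per kb in ethanol mice and 0.296 ± 0.0427 times in saline mice. Rpl7l1, whose product acts in assembly of the large subunit, reached 0.750 ± 0.0677 times the level of Rpl7 per kb in ethanol mice and 0.666 ± 0.0626 times in saline mice. Rps4l is annotated as a transcribed processed pseudogene on chromosome 6, within and opposite to Tmtc1, and stood at 0.484 ± 0.145 times the level of the X-linked Rps4x per kb in ethanol mice and 0.395 ± 0.0813 times in saline mice. Reads shared by related copies could be split between such pairs, and this was not tested.

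These genes moved together from mouse to mouse, and the widest swing lay within the saline group. The median deviation of the 80 genes from their own 9-library means, on the log2(CPM + 0.5) scale, was -0.07, -0.00, 0.05 and 0.01 in ethanol 1 to 4, against 0.03, 0.00, -0.09, 0.19 and -0.15 in saline 1 to 5. The extremes were thus both saline mice of the younger cohort. In saline 4, 76 of the 80 genes lay above their own mean, and in saline 5 only 4 did, while in all libraries between 50.9 and 53.8% of all tested genes lay above theirs. In the remaining libraries the count was 17, 38, 58 and 42 in ethanol 1 to 4, against 49, 41 and 11 in saline 1 to 3. Set against each other, 79 of the 80 genes were higher in saline 4 than in saline 5, with a median of 1.25-fold, and among all tested genes the share was 50.1%. Saline 4 held the highest value of 47 genes and saline 5 the lowest of 33.

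**Figure D2:**
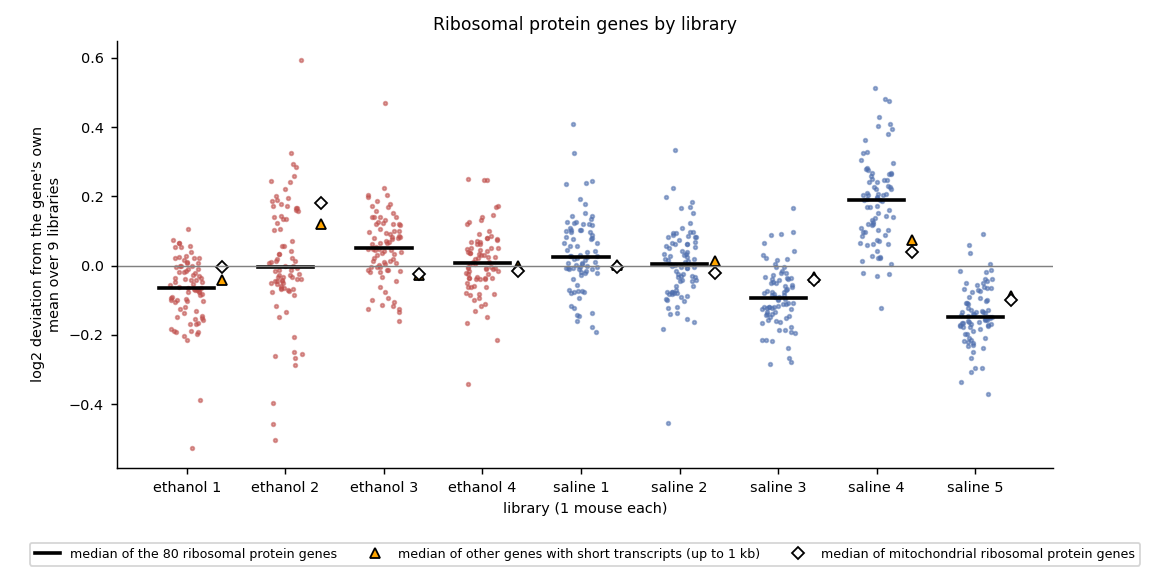
Each point is 1 ribosomal protein gene in 1 library, as its log2 deviation from its own mean over 9 libraries, and black lines are medians over the 80 genes. The median is highest in saline 4 (0.19) and lowest in saline 5 (-0.15), and triangles and diamonds show the medians of other short genes and of mitochondrial ribosomal protein genes.

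Saline 4 and saline 5, both from younger mice, had tissue weights of 31 and 48 mg, RNA integrity numbers of 9.9 and 9.8, RNA concentrations of 237 and 188 pg per µl, 14602 and 11603 sorted cells, and totals of 18016777 and 20919085 counts. The suffix of their library names also differed, and saline 4 was the single younger mouse with the suffix that older mice other than saline 1 carried. The part of these differences in the pattern was not tested. Neuronal markers summed to 194 CPM in saline 4 and 436 CPM in saline 5 over the 9 tested genes, and astrocyte markers to 343 and 518 CPM. In ethanol 4, where both lists were also high (498 and 517 CPM), the ribosomal protein median was 0.01. In saline 1, which had 7.79 CPM of the tested neuronal markers, it was 0.03. The part of other cells in the pattern was not tested, and in bulk RNA fewer cells of a type and less RNA per cell cannot be told apart. The genes' transcripts were short (median 834 nucleotides, against 2854 for tested genes), and other genes with transcripts of at most 1 kb had medians of 0.07 in saline 4 and -0.09 in saline 5. With a smooth trend on transcript GC content and length taken out of each library, the medians of the ribosomal protein genes were 0.17 in saline 4 and -0.10 in saline 5, and 74 and 11 genes lay above their own mean. The genes of the mitochondrial ribosome had their highest median in ethanol 2 (0.18), where the cytoplasmic set was at -0.00. Their next highest was in saline 4 (0.04, with 50 of 76 genes above their own mean) and their lowest in saline 5 (-0.10, with 16 of 76 above).

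Pairs of ribosomal protein genes were correlated over the 9 libraries with a median Pearson r of 0.48 (quartiles 0.25 and 0.67, 3160 pairs), and 90.03% of pairs had an r above 0. Over all tested genes the median r was -0.00, with quartiles of -0.31 and 0.31. Genes of the large subunit had a median r of 0.46 with each other and 0.48 with genes of the small subunit, and small subunit genes had 0.52 with each other. The medians were 0.19 for mitochondrial ribosomal protein genes, 0.19 for genes of ribosome assembly and rRNA synthesis, 0.22 for genes of elongation, initiation and other TOP mRNAs, 0.03 for genes of the mTOR pathway and 0.12 for 615 other genes with short transcripts. All of these pairs share the same 9 libraries, and r values are given as a description. The level of r leaned on the extreme libraries. Without saline 4 and saline 5, an alternative chosen after the data were seen, the median was 0.24, and with any 1 library left out it ran from 0.35 to 0.57.

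**Figure D3:**
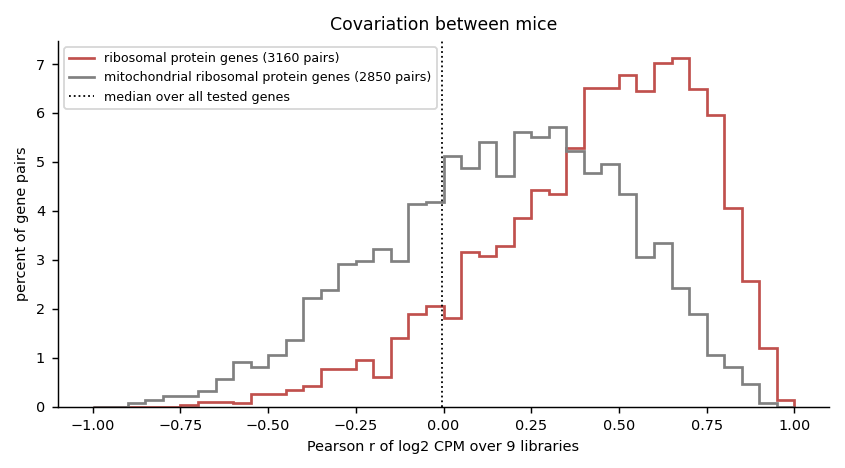
Distribution of Pearson r over 9 libraries for all pairs of cytoplasmic ribosomal protein genes (3160 pairs) and of mitochondrial ribosomal protein genes (2850 pairs), in percent of pairs. The first distribution has its median at 0.48 and the second at 0.19, and the dotted line marks the median of all tested genes at -0.00.

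Individual genes followed the common course to different degrees. Rpl12, Rpl19 and Rpl41, all of the large subunit, had the highest r with the mean of the other 79 genes, at 0.93, 0.92 and 0.92. Rpl41, which encodes the smallest ribosomal protein, had 42.0, 40.2, 42.7 and 42.8 CPM in ethanol mice, against 42.2, 41.7, 38.4, 51.3 and 35.7 CPM in saline mice. The ethanol libraries thus lay within 3 CPM of each other, and saline 4 and saline 5 stood on either side of the rest. The lowest r belonged to Rpl34 (-0.01), Rpl7l1 (0.07) and Rpl6 (0.13). Rpl34 had 25.9, 23.2, 24.4 and 26.0 CPM in ethanol mice, against 22.2, 25.8, 27.7, 25.0 and 22.0 CPM in saline mice, with its highest value in saline 3. An r above 0.5 was seen for 62 of the 80 genes.

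The spread between mice was small but above counting error. The SD of log2 values over the 9 libraries had a median of 0.135 for these genes and 0.227 for all tested genes. Counting error alone gives a median of 0.056 at the depth of the ribosomal protein genes, and in 79 of the 80 the SD was above its counting value. All tested genes reached lower levels, with a first quartile of 4.30 CPM against 21.9 CPM for these genes, and were not matched on level. The steadiest were Rps15, Rpl29 and Rpl26, with SDs of 0.063, 0.071 and 0.086. Rps15 had 26.7, 28.3, 27.3 and 29.03 CPM in ethanol mice, against 26.6, 29.4, 26.2, 29.1 and 26.7 CPM in saline mice. The most variable were Rps4l, Rpl22l1 and Rps21, with SDs of 0.35, 0.27 and 0.25. Rps21, one of the shortest transcripts, had 11.5, 7.91, 10.1 and 11.8 CPM in ethanol mice, against 10.5, 12.3, 11.8, 15.0 and 9.80 CPM in saline mice, with its lowest value in ethanol 2.

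The main question of the study was whether ethanol given in the first days of life changed the microglial transcriptome in adolescence. No ribosomal protein gene did so by the test used. By edgeR's quasi-likelihood test with Benjamini-Hochberg adjustment at 0.05, 0 of 80 genes were called, where 0% of the 13067 tested genes were called. At an unadjusted p under 0.05 the count was again 0 of 80, against 2.95% of all tested genes. DESeq2 and limma-voom also called 0 of 80, with 0 of 80 at an unadjusted p under 0.05, where they placed 435 and 505 of all tested genes there. A log2 fold change above 0 was found for 45 of 80 genes, against 49.8% of all genes. Under upper quartile scaling, which moved the median of all genes to 0.03, it was 57 of 80. The median log2 fold change was 0.01 for these genes and -0.00 for all tested genes. The median size of the change, in either direction, was 0.050 against 0.118, with no match on level.

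The intervals give the size of change these data allow. The 95% interval of ethanol over saline lay within 1.25-fold in either direction for 55 of the 80 genes, within 1.5-fold for 78 and within 2-fold for all 80. Over all tested genes, which include more genes of low level and were not matched on it, the shares within those folds were 26.4, 59.4 and 79.3%. The 2 genes whose intervals reached beyond 1.5-fold were Rps4l and Rpl23a. The interval of Rpl4, the highest gene in CPM, ran from -0.10 to 0.34 on the log2 scale, and that of Rps6 from -0.09 to 0.34.

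**Figure D4:**
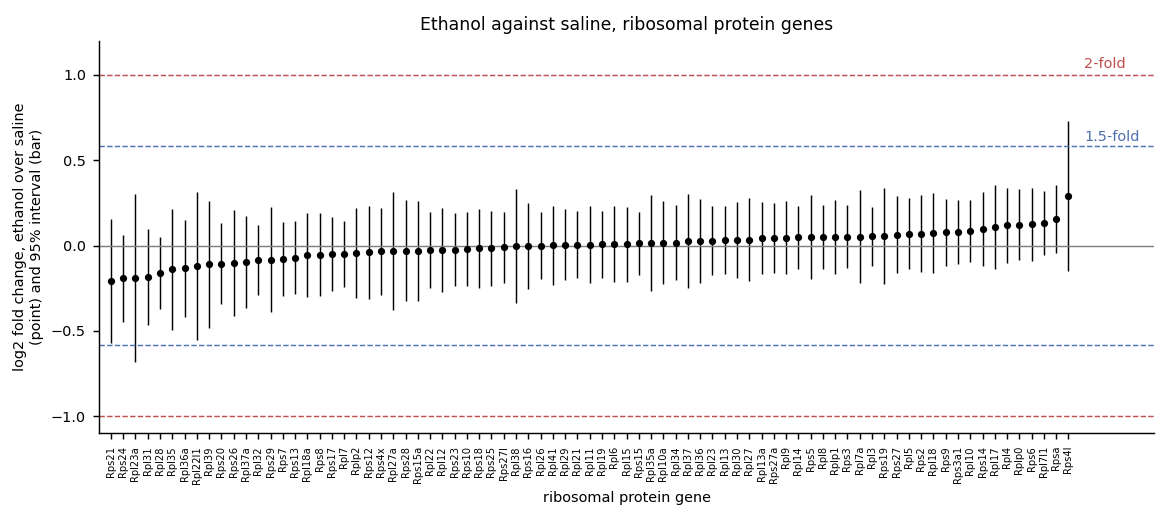
Log2 fold change of ethanol over saline for 79 of the 80 ribosomal protein genes (points, in order of size) with 95% intervals (bars), and dashed lines at 1.5-fold and 2-fold. All intervals shown include 0, and those of Rps4l and Rpl23a alone reach beyond 1.5-fold.

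Mouse by mouse, the lowest p-values of either sign belonged to the following genes. Rpsa, which encodes a small subunit protein also known as the laminin receptor, had 47.7, 50.6, 53.5 and 48.2 CPM in ethanol mice, against 44.6, 45.5, 40.3, 51.8 and 42.2 CPM in saline mice. Saline 4 lay within the ethanol range and the other saline mice below it (log2 fold change 0.16 ± 0.09 SE, unadjusted p = 0.114 and adjusted p = 0.963 by edgeR's quasi-likelihood test). Rpl7l1 had 127, 149, 122 and 117 CPM in ethanol mice, against 124, 109, 118, 119 and 116 CPM in saline mice, and overlapped (0.13 ± 0.08). Rps4l had 21.7, 37.8, 34.6 and 19.6 CPM in ethanol mice, against 26.8, 18.1, 24.5, 24.5 and 22.7 CPM in saline mice. Ethanol 2 and ethanol 3 lay above the saline range and the other ethanol mice within it (0.29 ± 0.20).

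In the other direction, Rpl28 encodes a large subunit protein that budding yeast lacks. It had 19.7, 19.8, 19.1 and 18.7 CPM in ethanol mice, against 20.6, 20.4, 22.0, 24.8 and 20.4 CPM in saline mice. It was the single gene of the 80 whose groups did not overlap, with ethanol lower (log2 fold change -0.16 ± 0.10, unadjusted p = 0.123 by edgeR's quasi-likelihood test), where 0.628% of all tested genes separated that way. With ethanol higher, 0 of 80 genes separated, against 0.658% of all tested genes. Rps24 had 22.0, 20.6, 23.3 and 28.5 CPM in ethanol mice, against 27.7, 26.8, 25.7, 30.5 and 24.2 CPM in saline mice (-0.19 ± 0.12). Rpl31 had 16.5, 14.9, 18.6 and 17.6 CPM in ethanol mice, against 20.7, 18.4, 17.8, 23.3 and 15.9 CPM in saline mice (-0.18 ± 0.13). Ethanol 4 lay within the saline range for Rps24, and saline 2, 3 and 5 lay within the ethanol range for Rpl31. The adjusted p was 0.963 for each of these genes.

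**Figure D5:**
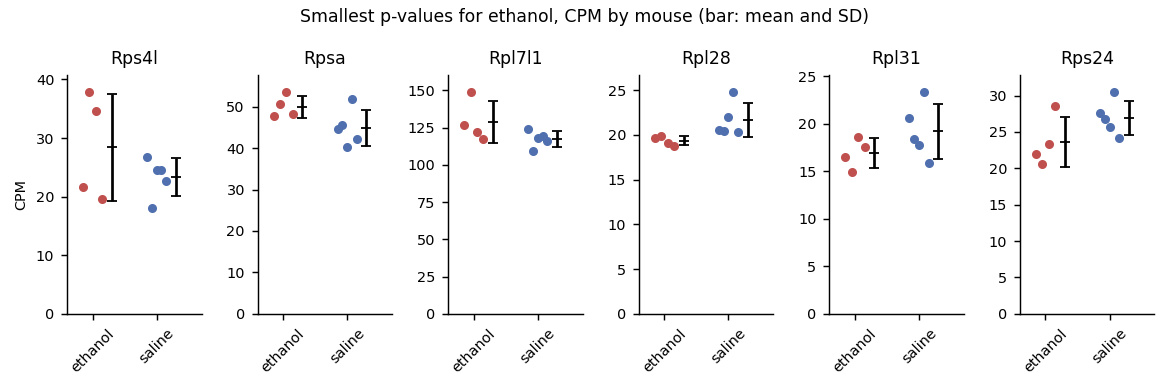
CPM of the 3 genes with the smallest p-values for ethanol in each direction, 1 point per mouse, with mean and SD beside the points. The groups overlap for every gene except Rpl28, where 4 ethanol mice lie between 18.7 and 19.8 CPM and 5 saline mice between 20.4 and 24.8 CPM.

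The mice also differed in age. Older mice (days 35 and 36: ethanol 1, ethanol 2, saline 1 and saline 3) were compared with younger mice (days 29 and 30) with treatment as a covariate. By edgeR's quasi-likelihood test with Benjamini-Hochberg adjustment, 0 of 80 genes were called, where 0% of all tested genes were called. At an unadjusted p under 0.05 the count was 1 of 80, against 2.85% of all genes, and DESeq2 and limma-voom called 0 and also placed 1 of 80 there. Rpl35a had 16.1 and 17.7 CPM in the older ethanol mice and 16.0 and 15.1 CPM in the older saline mice, against 20.0 and 18.6 CPM in the younger ethanol mice and 19.0, 21.9 and 17.7 CPM in the younger saline mice. The cohorts met at ethanol 2 and saline 5 (log2 fold change older over younger -0.27 ± 0.11, unadjusted p = 0.0339, adjusted p = 0.973 by edgeR's quasi-likelihood test). Rps15a had the next smallest p among lower genes, at -0.25 ± 0.12. Among genes higher in older mice, Rpl7l1 stood at 0.13 ± 0.08 and Rps4l at 0.20 ± 0.20. A log2 fold change above 0 was found for 21 of 80 genes, against 45.2% of all genes, with a median of -0.05 for these genes and -0.02 for all. No gene of the 80 separated the cohorts completely, with older mice higher or lower, where 0.643% and 0.597% of all tested genes did. The count above 0 rested on a few libraries and on the scaling. It was 40 of 80 without saline 4 and 32 without saline 3, it was 11 to 13 without saline 1, ethanol 2 or saline 5, and it was 33 under upper quartile scaling. It was 6 without both saline 1 and ethanol 2, and 3 with the library-name suffix as a covariate, where the median was -0.30. The suffix nearly coincided with the cohort, since no older mouse carried the suffix of the younger mice other than saline 4, and in that fit saline 4 was the single younger mouse set against older mice of its own suffix. Suffix and age can hardly be told apart here.

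The interaction of ethanol with age cohort called 0 of 80 genes by edgeR's quasi-likelihood test, where 0% of all tested genes were called. At an unadjusted p under 0.05 it was 0 of 80, against 3.24% of all genes, and DESeq2 called 0 of 80 with 0 of 80 unadjusted. Without ethanol 1, where the 1 older ethanol mouse left is assumed to vary like the rest, 848 genes overall and 0 of the 80 were called. A difference above 0 was found for 37 of 80 genes, against 48.8% of all genes, and the median was -0.01. That count was 24 without saline 4 (median -0.10), 57 without saline 5 (median 0.07) and 56 without saline 1 (median 0.06).

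The genes that work with the ribosomal proteins were read in the same fit, in which 49.8% of all tested genes lay above 0 with a median of -0.00. Of 22 tested genes of elongation, initiation and other TOP mRNAs (23 listed), 0 were called for ethanol and 15 had a log2 fold change above 0, with a median of 0.03. Eef1a1, the elongation factor that brings transfer RNAs to the ribosome, had 473, 489, 539 and 511 CPM in ethanol mice, against 501, 473, 447, 568 and 494 CPM in saline mice, and followed saline 4 upward as the ribosomal proteins did. Eif3k, a subunit of an initiation complex, had 29.1, 33.9, 30.9 and 31.7 CPM in ethanol mice, against 27.0, 26.4, 26.9, 26.6 and 23.7 CPM in saline mice. The groups did not overlap (log2 fold change 0.27 ± 0.09, unadjusted p = 0.00982, adjusted p = 0.963 by edgeR's quasi-likelihood test). Eif3k was named for the smallest p of its list, and 0.658% of all tested genes separated with ethanol higher.

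Of 43 tested genes of ribosome assembly and rRNA synthesis (44 listed), 0 were called and 31 were above 0, with a median of 0.08. Their median deviation was 0.08, 0.17, 0.00 and -0.07 in ethanol 1 to 4, so the high values were those of the older ethanol mice. In saline 1 to 5 it was 0.01, -0.05, -0.05, -0.03 and 0.00. For older against younger mice, 32 of the 43 were above 0, against 45.2% of all tested genes. Ncl, which encodes the nucleolar protein nucleolin, had 185, 196, 180 and 173 CPM in ethanol mice, against 195, 182, 176, 182 and 194 CPM in saline mice. Heatr1, needed for synthesis and processing of pre-rRNA, had 132, 96.6, 140 and 129 CPM in ethanol mice, against 150, 144, 148, 157 and 159 CPM in saline mice. Its groups did not overlap (-0.29 ± 0.10, unadjusted p = 0.0180, adjusted p = 0.963 by edgeR's quasi-likelihood test). Heatr1 too was named for the smallest p of its list, and 0.628% of all tested genes separated with ethanol lower. Of 25 tested genes of the mTOR pathway and TOP translation control (26 listed), 0 were called and 13 were above 0, with a median of 0.00. Cnbp, which binds TOP mRNAs, had 431, 508, 419 and 388 CPM in ethanol mice, against 404, 384, 402, 416 and 385 CPM in saline mice. Myc, a transcription factor that drives ribosome production, had 23.5, 31.6, 28.1 and 17.4 CPM in ethanol mice, against 52.8, 36.5, 49.7, 37.0 and 28.7 CPM in saline mice. Saline 5 overlapped the ethanol range (-0.70 ± 0.21, unadjusted p = 0.00685, adjusted p = 0.963 by edgeR's quasi-likelihood test).

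Of 76 tested mitochondrial ribosomal protein genes (77 matched), 0 were called and 51 were above 0, with a median of 0.05. Ethanol 2 stood apart, as their median deviation was -0.00, 0.18, -0.02 and -0.01 in ethanol 1 to 4. In saline 1 to 5 it was -0.00, -0.02, -0.04, 0.04 and -0.10. Mrps2, the highest of them in CPM, had 61.1, 64.5, 52.7 and 53.8 CPM in ethanol mice, against 58.6, 53.4, 46.9, 43.7 and 48.9 CPM in saline mice. Mrpl44 had 22.1, 26.3, 24.2 and 20.6 CPM in ethanol mice, against 16.7, 19.2, 19.3, 21.8 and 18.1 CPM in saline mice, with ethanol 4 inside the saline range (0.29 ± 0.11). For these 4 lists together, 10 genes had an unadjusted p under 0.05, where 2.95% of all tested genes did. They were 2 of 22 of elongation and initiation, 2 of 43 of assembly, 3 of 25 of the mTOR pathway and 3 of 76 of the mitochondrial ribosome.

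The genes are scattered over 19 chromosomes, 4 of them on the X chromosome (Rps4x, Rpl10, Rpl39 and Rpl36a). Of the 80, 30 hold small nucleolar RNA genes in their introns, 58 in all, with Rpl4 hosting 5, and none of the 58 reached a mean of 1 CPM. Some of these and others, 26 of the 80 in all, overlap a coding or long non-coding gene in GENCODE M21, on the opposite strand for 23. Rpl28 is among them and overlaps Ube2s, and Rpl31 overlaps Tbc1d8. The sources used here do not say whether the counting used strand, so reads of such a gene and its partner cannot be told apart.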

How the data were processed

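RNA from sorted microglia of 9 mice was sequenced, 1 library per mouse. The authors deposited unnormalized integer counts for each gene symbol. Trimmomatic 0.32, STAR 2.4.2a, HTSeq 0.6.1 and build GRCm38.p4 were listed, per the submitters' processing notes. The sources used here state neither their settings nor whether strand was used. No column was left out (0 unused).

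Genes were kept by filterByExpr (minimum count 10, minimum total 15), which left 13067, and scaled by TMM. The test was edgeR 4.0.16's quasi-likelihood F test (robust, R 4.3.3) with Benjamini-Hochberg adjustment over all 13067 genes at 0.05. Each standard error is the size of the log2 fold change over the square root of F, and 95% intervals use the test's degrees of freedom. Levels are CPM, and CPM per kb uses 1 transcript per gene of GENCODE M21 on GRCm38, preferring one matched to RefSeq, with lengths for 97.8% of tested genes. Deviations and correlations used log2(CPM + 0.5). The fit was tested on simulated data before use.

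The genes, the lists and the rule for named genes were chosen with earlier results of these data known. Named genes were a fixed set of stalk, paralogue and well-studied genes, the 5 highest and lowest in CPM and in CPM per kb, the 3 smallest p in each direction for ethanol and 2 for age, the 3 largest and smallest SD, and the 3 highest and lowest r. In each list they were the highest gene and the one of smallest p. Some are named with group values only, 1 is not reported here, and genes overlapping others and the rows near the threshold were named after their values were seen.

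Alternatives were DESeq2 1.42.0, limma 3.58.1 (voom with sample weights), other scalings and filters, each library left out, saline 1 and ethanol 2 left out, name suffix or age cohort as a covariate, each cohort alone, the replicate number as a block, and a GC and length trend removed. Replicate numbers did not pair the mice.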

Additional observations from a re-analysis of the deposited data

Results flagged for a closer look

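In 6 of 112 groups of 4 or 5 libraries examined, 1 library lay far from the rest of its group by Dixon's criterion at 95%, and chance flags about 1 group in 20. Rpl22l1 had 9.43 CPM in ethanol 4, against 6.82 to 7.21 CPM in the other ethanol mice. Rps4x had 70.1 CPM in ethanol 3, against 56.7 to 57.8 CPM in the others. Rpl38 had 10.02 CPM in ethanol 3, against 8.78 to 8.80 CPM. Rps9 had 125.5 CPM in ethanol 2, against 112 to 114 CPM. Among saline mice, Rps27l had 19.6 CPM in saline 2, against 22.8 to 23.9 CPM in the others. The initiation factor gene Eif3k had 23.7 CPM in saline 5, against 26.4 to 27.0 CPM.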

How the results depend on the processing

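For ethanol, 0 ribosomal protein genes and 0 genes overall were called under all 22 alternatives. The count of ribosomal protein genes above 0 ran from 33 to 61 with 1 library left out. For age, all genes called were 97 with no count filter and 3 without both saline 1 and ethanol 2, and 0 ribosomal protein genes were called under any of 21 alternatives. The ribosomal protein genes above 0 for age numbered 33 with upper quartile factors, 6 without both saline 1 and ethanol 2, 3 with the library-name suffix as a covariate (median -0.30), and 11 to 40 with 1 library left out. For the interaction, DESeq2 called 1 gene, leaving out 1 library gave 0 to 848 genes (848 without ethanol 1, 0 of them ribosomal protein genes), and ribosomal protein genes above 0 ran from 24 to 57. The log2 fold change of Eef1a1 for ethanol ran from -0.0159 to 0.0724 with 1 library left out. That of Ncl for ethanol was 0.0182 with upper quartile factors, 0.0387 in the older mice alone, and ran from -0.0544 to 0.00923 with 1 library left out. That of Rps4l for age was -0.0438 without both saline 1 and ethanol 2 and -0.0466 with the suffix. The median r was 0.24 without saline 4 and saline 5, and 11 genes lay above their own mean in saline 5 with the GC and length trend removed. With the C on the start base, 13 genes had the tract. The cause of these changes was not tested.

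The replicate numbers did not pair the mice, since same-numbered mice had correlations of deviations of -0.05, -0.02, -0.12 and -0.01. With the replicate block, which left out saline 5, 0 ribosomal protein genes were called for ethanol, 35 were above 0 and the median was -0.02.

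Counting error gave a median SD of 0.056 on the log2 scale, below the median SD of 0.135 between libraries. The median SE of the log2 fold change for ethanol was 0.10. The part of depth and of the spread between mice in the width of the intervals was not tested. Rpl23a had the lowest counts, with 29 in its lowest library.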
